A study of Mus musculus with 6 samples.

Results

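The proteins of the mitochondrial ribosome are encoded in the nucleus, made in the cytosol and imported, and their mRNAs were followed here in mouse hearts after treatment with 1 of 2 oral anticoagulants. The set holds every protein-coding gene listed with a symbol that starts with Mrpl (large subunit) or Mrps (small subunit) followed by a digit. It counts 72 of the 16229 genes listed, 44 Mrpl and 28 Mrps, and all 72 were among the 12981 genes tested. The hearts came from male wild-type C57BL/6 mice aged 8 to 10 weeks, and the tissue included the infarcted part and its surroundings, per the labels. The rivaroxaban group received 3 mg/kg of that factor Xa inhibitor for 7 days and has 2 libraries, replicates 14 and 15. The dabigatran group received 10 mg/kg of that factor IIa (thrombin) inhibitor for 7 days and has 2 libraries, replicates 10 and 12. The untreated group has 2 libraries, replicates 8 and 9. Whether untreated mice had an infarct is not stated in the labels. Nor do they state that each library is a different mouse, so the spread between replicates could be technical. The p-values rest on that spread, pooled over the groups and drawn towards the spread of other genes of similar level. The drug doses differ, so the drugs are set against each other as given and not at matched doses.

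The mitochondrial ribosome translates the few mRNAs that mitochondrial DNA encodes, all of them for subunits of the oxidative phosphorylation complexes. It has lost much of the RNA of its bacterial ancestor and gained proteins: many of its proteins still have a bacterial counterpart, and others exist in mitochondria alone. The heart is rich in mitochondria, and in humans inherited defects of several of these proteins cause cardiomyopathy. By their place in the particle, 26 of the genes encode large-subunit proteins with a bacterial counterpart, 20 mitochondria-specific large-subunit proteins, 16 small-subunit proteins with a bacterial counterpart and 9 mitochondria-specific small-subunit proteins. Some symbols mislead: Mrps30 and Mrps18a are named for the small subunit but their proteins sit in the large one, and the protein of Mrps36 is a part of the oxoglutarate dehydrogenase complex and not of the ribosome. The genes lie on 17 chromosomes of the mouse, with 11 of them on chromosome 11.

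Summed over the genes listed, the libraries held 35895896 and 29028033 reads in the rivaroxaban group and 27176892 and 43798222 in the dabigatran group. The untreated libraries held 28624427 and 32285438, and all these totals were recovered from the low values. The members were well counted, with 225 to 16050 reads per gene and library. Markers of cardiac muscle were high in every library, while the summed level of 4 genes of infarct and neutrophil inflammation (Spp1, S100a8, S100a9 and Il1b) was 1.16 to 2.23 CPM (reads scaled by the size of the library), and none of them passed the filter on low values. Of 4 mesothelial markers, the genes of the heart's outer lining, 3 (Krt19, Upk3b and Msln) fell and 1 (Wt1) rose with rivaroxaban in the test used below, and with dabigatran Upk3b and Msln fell and Wt1 rose. Each of these calls other than Upk3b and Msln with rivaroxaban was lost when at least 1 of the libraries was left out. The summed mesothelial level was 36.6 and 41.6 CPM with rivaroxaban, 43.2 and 47.8 CPM with dabigatran and 65.4 and 62.6 CPM in untreated hearts.

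Levels between genes were compared per length, as CPM per kilobase (kb) of merged coding-transcript exon, averaged over the 6 libraries. The median member had 37.2 CPM per kb and the range spanned 71.6-fold. Mrpl42, a mitochondria-specific large-subunit protein, was highest at 545.2 CPM per kb, followed by the small-subunit gene Mrps21 at 207.1, Mrps36 at 138.3 and Mrpl34 at 124.6 CPM per kb. Mrpl19, which encodes a large-subunit protein with a bacterial counterpart, was lowest at 7.61 CPM per kb, near Mrps25 at 7.78 and Mrps17 at 8.26 CPM per kb. The order depends on the length used. By the median length of each gene's coding transcripts Mrps17 had 58.3 CPM per kb, Mrpl42 was still highest at 560.1 and Mrpl19 and Mrps25 were still lowest, but Mrps23 (289.4), Mrps21 (286.9), Mrpl30 (272.7) and Mrpl4 (170.9 CPM per kb) came next, above Mrps36 at 152.4. Medians by role were 45.3 CPM per kb for the mitochondria-specific and 40.8 for the bacterial-type proteins of the large subunit, and 23.0 and 35.6 CPM per kb for those of the small subunit. By median transcript length these were 54.2, 60.2, 29.7 and 52.4 CPM per kb, so the order of the large-subunit classes turned round. Subunits of 1 particle thus had mRNA levels that differed far more than any of them did between groups. Mrpl34, Mrpl4, Mrps21, Mrps17 and Mrps25 were named after their values were seen.

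**Figure D1:**
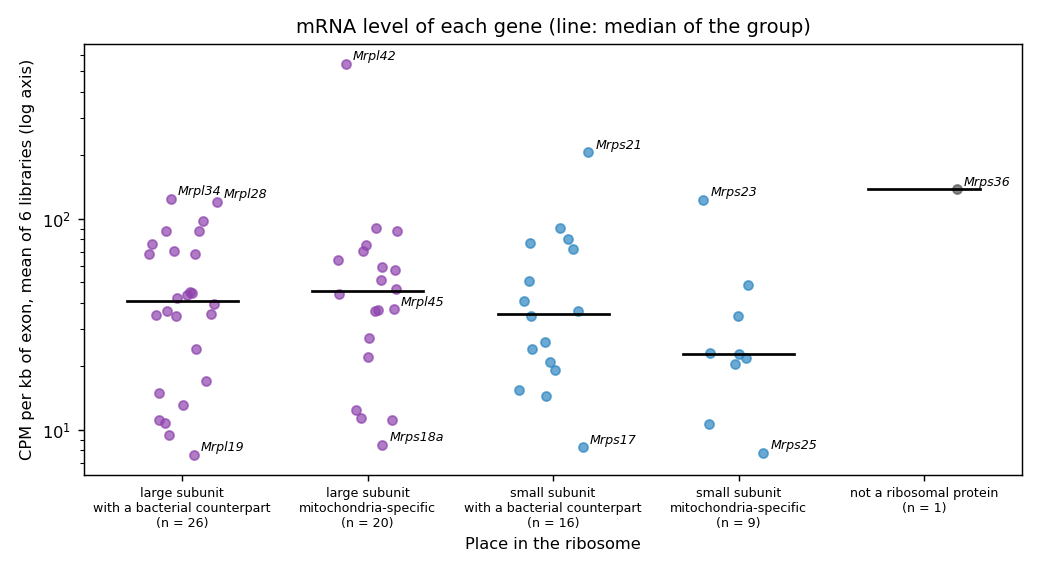
Mean level of each of the 72 genes over the 6 libraries, in CPM per kb of exon (log axis), by place in the ribosome; each point is a gene and the line is the median of the group. Mrpl42 stands highest at 545.2 CPM per kb, and the groups overlap over most of their ranges.

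In hearts of rivaroxaban-treated mice the mRNAs of the mitochondrial ribosome sat slightly lower as a set, and 1 gene, Mrpl45, fell past the threshold. Of the 72 genes, 64 (88.9%) had a lower mean log2 CPM than in untreated hearts, against 48.5% of all genes tested. The median log2 change was -0.097, a median change of -6.49%, against 0.005 for all genes tested, and single changes ran from -0.30 to 0.06. With limma and Benjamini-Hochberg adjustment over all genes tested, 1 member had an adjusted p below 0.05 (1.39% of members), where the background was 319 of 12981 genes (2.46%; 1.47% higher and 0.986% lower), so the share of members called is near that background. At an unadjusted p below 0.05 there were 21 members (29.2%), all lower, where 17.2% of all genes passed, 7.75% lower and 9.45% higher. Both rivaroxaban libraries were below both untreated libraries in 47 members (65.3%; 24.5% of all genes) and above both in 3 (4.17%; 26.1% of all genes).

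Both libraries of the rivaroxaban group were on the low side. Relative to each gene's own mean over the 6 libraries, the median log2 deviation of the members was -0.057 and -0.063 in the rivaroxaban libraries, 0.064 and -0.019 in the dabigatran libraries and 0.061 and 0.018 in the untreated libraries. Over all genes tested these medians stayed between -0.003 and 0.003. The 2 rivaroxaban libraries were thus the lowest of the 6 and hardly differed, each being the higher of the pair in 36 members. Replicates of the other groups were further apart: dabigatran replicate 10 exceeded replicate 12 in 55 members by a median log2 difference of 0.079, and untreated replicate 8 exceeded replicate 9 in 54 members by 0.048. The median change with rivaroxaban, -0.097, was thus larger in size than the median difference within any pair of replicates, by little for the dabigatran pair. It sets means of 2 libraries against each other, while a pair sets single libraries. Without untreated replicate 8 the median change was -0.077, smaller in size than the 0.079 of the dabigatran pair. The replicate SD of the median deviation was 0.038. As a share of the reads of all genes listed, the members took 0.511% and 0.508% with rivaroxaban. They took 0.540% and 0.520% with dabigatran and 0.545% and 0.534% in untreated hearts.

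**Figure D2:**
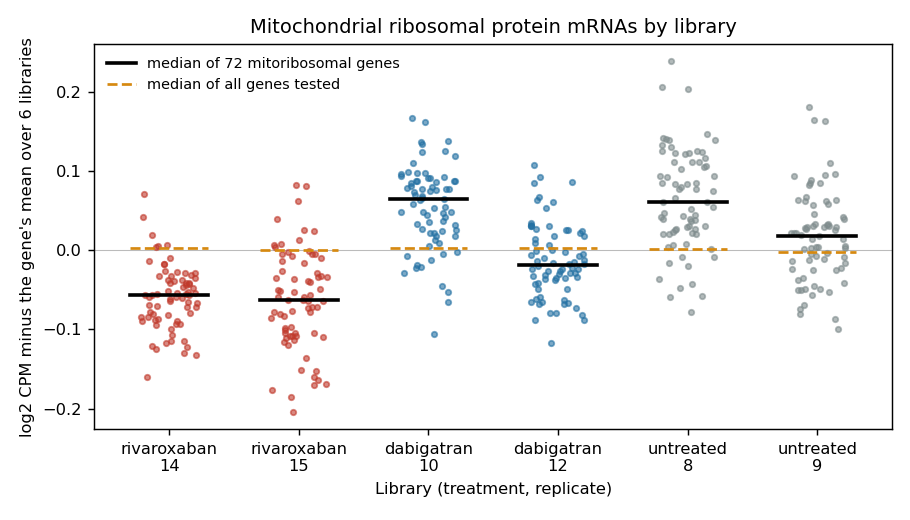
Log2 CPM of each of the 72 genes minus that gene's mean over the 6 libraries, by library; black lines are the medians of the members and dashed lines those of all genes tested. The members' medians are -0.057 and -0.063 in the rivaroxaban libraries, and dabigatran replicate 12 lies at -0.019, apart from replicate 10 at 0.064.

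Of 4 cardiomyocyte markers (Myh6, Myl2, Tnnt2 and Ryr2, of 6 in the list), 3 were lower with each drug than in untreated hearts. Ryr2 was higher, by 0.009 with rivaroxaban and 0.11 with dabigatran on the log2 scale. Their summed level, in which Myh6 weighs most, was 61022 and 62381 CPM with rivaroxaban, 63134 and 63739 CPM with dabigatran and 64318 and 65247 CPM in untreated hearts. The members' median log2 changes against untreated had the same order of groups. Within the dabigatran and untreated pairs, the replicate with the higher summed level had the lower median deviation of the members. The rivaroxaban replicates hardly differed in the members. None of the 4 markers passed the test in any comparison. Their median log2 change was -0.067 with rivaroxaban and -0.028 with dabigatran, each against untreated. The part of the summed cardiomyocyte level in the result was not tested. In bulk tissue, fewer cells of a type and less RNA per cell cannot be told apart. Summed levels of the endothelial markers (876 to 966 CPM with rivaroxaban, 866 to 949 with dabigatran and 861 to 913 in untreated hearts), fibroblast markers (1014 to 1090, 988 to 1056 and 995 to 1057 CPM in the same order) and macrophage markers (171 to 194, 178 to 188 and 170 to 188 CPM) overlapped between groups. The lower summed mesothelial level described above accompanied both drugs, and its part was not tested either. The erythroid marker Slc4a1 (1 of 4 in that list) was at 1.81 and 1.23 CPM with rivaroxaban, 2.54 and 1.70 CPM with dabigatran and 0.807 and 0.216 CPM in untreated hearts. It was higher in every drug library, past the test with dabigatran (log2 change 2.12, limma adjusted p 0.0487) and not with rivaroxaban (1.67, 0.0982). The dabigatran call was lost without any 1 library other than untreated replicate 8 (adjusted p 0.0661 to 0.275), and without untreated replicate 8 rivaroxaban passed as well (2.49, 0.0157). The part of Slc4a1 in the result was not tested.

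Mrpl45 encodes a mitochondria-specific large-subunit protein (mL45) that lies by the exit tunnel and ties the ribosome to the inner membrane, where its products are inserted. The gene (ENSMUSG00000018882) spans positions 97315716 to 97329920 on the plus strand of chromosome 11 in the mm10 build. Mrpl45 had a log2 CPM of 6.44 and 6.46 with rivaroxaban, 6.64 and 6.56 with dabigatran and 6.81 and 6.69 in untreated hearts, from 2577 to 4107 reads per library. The rivaroxaban libraries were the lowest, the untreated libraries the highest, and no group overlapped another. Its mean was 6.45 ± 0.02 with rivaroxaban and 6.75 ± 0.08 in untreated hearts (log2 CPM, SD, n = 2 each), a log2 change of -0.30 (SE 0.06, 95% interval -0.43 to -0.17), or 81.3% of the untreated level. The limma adjusted p was 0.0274. The call did not hold when 1 library was left out in 3 of 6 cases: the adjusted p was 0.152 without rivaroxaban replicate 14, 0.208 without rivaroxaban replicate 15 and 0.172 without untreated replicate 8, with log2 changes between -0.35 and -0.24 over all 6. Dabigatran libraries do not enter this log2 change, though they share in the estimate of spread behind its SE and p-value. Leaving out either of them kept the log2 change at -0.30. The 3 losses fell among the rivaroxaban and untreated libraries, of which only untreated replicate 9 could be left out without losing the call. The call was also lost without limma's mean-variance trend (limma adjusted p 0.185).

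The promoters of 4 members are shown. Mrpl45 and Mrps26 had the lowest log2 changes with rivaroxaban, and Mrps15 had the highest. Mrps18b starts near a gene that rose with both drugs, Ppp1r10, 756 bases away by the RefSeq starts used for these promoters. Each runs from 250 bases before to 50 after the RefSeq start (GRCm38.p6), 5′ to 3′ on the gene's strand, and capitals mark matches on either strand to motifs named for regulators of nuclear genes for mitochondria: NRF1 (GCGCANGCG), the ETS family that includes GABPA (CCGGAAG) and YY1 (AAGATGGCG). The places are chr11:97315466-97315765 on the plus strand for Mrpl45, chr2:130563507-130563806 on the plus strand for Mrps26, chr17:35916391-35916690 on the minus strand for Mrps18b and chr4:126046678-126046977 on the plus strand for Mrps15.
Mrpl45: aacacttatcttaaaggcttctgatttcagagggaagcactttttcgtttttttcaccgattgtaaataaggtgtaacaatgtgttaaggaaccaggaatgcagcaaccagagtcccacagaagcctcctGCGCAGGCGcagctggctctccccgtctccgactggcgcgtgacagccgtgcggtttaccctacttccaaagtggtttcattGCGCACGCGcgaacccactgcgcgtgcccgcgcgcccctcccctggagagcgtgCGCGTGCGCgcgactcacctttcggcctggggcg
Mrps26: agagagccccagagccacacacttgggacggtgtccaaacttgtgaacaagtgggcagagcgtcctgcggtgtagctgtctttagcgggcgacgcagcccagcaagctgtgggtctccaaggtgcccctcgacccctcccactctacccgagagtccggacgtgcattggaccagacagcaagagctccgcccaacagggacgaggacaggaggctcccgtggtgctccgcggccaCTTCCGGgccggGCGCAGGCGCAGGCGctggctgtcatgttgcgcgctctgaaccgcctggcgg
Mrps18b: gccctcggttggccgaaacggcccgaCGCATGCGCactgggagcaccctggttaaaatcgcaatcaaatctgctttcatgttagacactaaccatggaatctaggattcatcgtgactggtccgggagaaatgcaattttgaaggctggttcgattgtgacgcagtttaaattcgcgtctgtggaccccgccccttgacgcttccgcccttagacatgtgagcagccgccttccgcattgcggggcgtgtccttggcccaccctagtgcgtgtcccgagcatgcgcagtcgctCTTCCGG
Mrps15: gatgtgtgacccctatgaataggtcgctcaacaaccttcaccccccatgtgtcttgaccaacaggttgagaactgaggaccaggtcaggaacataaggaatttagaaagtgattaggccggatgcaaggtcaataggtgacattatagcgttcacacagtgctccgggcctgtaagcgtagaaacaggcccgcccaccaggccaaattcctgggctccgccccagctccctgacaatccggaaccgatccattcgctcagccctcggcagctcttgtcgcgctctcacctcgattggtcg

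The Mrpl45 promoter held 3 NRF1 matches, which begin 120 and 38 bases before the start and 16 bases after it. The Mrps26 promoter held 2 NRF1 matches that overlap at the start and an ETS match 14 bases before it. The Mrps18b window held 1 NRF1 match 224 bases before the start and 1 ETS match 43 bases after it, and the Mrps15 window held none of the 3 motifs. Over the 68 promoters found for 64 of the 72 members, 22.1% held an NRF1 match, 33.8% an ETS match and 11.8% a YY1 match, against 12.5%, 16.3% and 2.78% of the 12879 promoters of genes tested. Over all 32851 promoters in the table the shares were 6.25%, 8.86% and 1.40%. The median log2 change with rivaroxaban against untreated was -0.09 in the 15 genes with an NRF1 match and -0.11 in the 49 without, and it was -0.15 in the 23 genes with an ETS match and -0.09 in the 41 without. For YY1 it was -0.10 both in the 8 genes with a match and in the 56 without. Against untreated, dabigatran gave -0.02 with and -0.01 without an NRF1 match, -0.002 with and -0.01 without an ETS match, and 0.02 with and -0.01 without a YY1 match. These medians are a description of the members and were not tested.

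Among large-subunit proteins with a bacterial counterpart, 24 of 26 had a log2 change below 0 with rivaroxaban against untreated, with a median of -0.10 and none called. Mrpl20 encodes a protein that binds ribosomal RNA during assembly in bacteria. Its log2 CPM was 5.22 and 5.17 with rivaroxaban, 5.41 and 5.30 with dabigatran and 5.47 and 5.42 in untreated hearts. The rivaroxaban libraries lay below the other 4, with a log2 change of -0.25 (SE 0.07, limma adjusted p 0.0888). Mrpl19 was at 5.16 and 5.13 with rivaroxaban, 5.20 and 5.22 with dabigatran and 5.37 and 5.41 in untreated hearts. Here both drug groups lay below the untreated one, and neither change passed the test: -0.25 with rivaroxaban (limma adjusted p 0.0774) and -0.18 with dabigatran (0.204). Exons of Mrpl19 share 1962 bases with Gcfc2 on the opposite strand, and the strand setting of the counting is not given in the sources used here. Mrpl27, whose bacterial counterpart reaches the peptidyl transferase centre, had a log2 change of -0.21 with rivaroxaban and -0.18 with dabigatran, each against untreated. Mrpl12, the stalk protein that recruits translation factors, had a log2 CPM of 6.58 and 6.46 with rivaroxaban, 6.70 and 6.62 with dabigatran and 6.73 in both untreated libraries. The rivaroxaban libraries were again the lowest, and the change of -0.21 did not pass (limma adjusted p 0.107).

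A pair of genes of this class had a log2 change above 0. Mrpl24 was at 5.77 and 5.73 log2 CPM with rivaroxaban, 5.82 and 5.85 with dabigatran and 5.68 and 5.71 in untreated hearts. The groups did not overlap and dabigatran was the highest, with log2 changes of 0.05 for rivaroxaban and 0.14 for dabigatran against untreated, neither past the threshold (limma adjusted p 0.689 and 0.305). Its exons share 594 bases with Rrnad1 on the opposite strand. Mrpl3, a core protein whose defects cause cardiomyopathy in humans, was at 6.96 and 6.97 with rivaroxaban, 7.06 and 6.99 with dabigatran and 6.93 in both untreated libraries. Both drug groups were above the untreated one, by 0.03 and 0.09 on the log2 scale, and neither passed (limma adjusted p 0.790 and 0.440).

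Among the mitochondria-specific large-subunit proteins, 17 of 20 were below 0 on the log2 scale with rivaroxaban against untreated, with a median of -0.11 and Mrpl45 alone called. Mrpl44, a protein with a ribonuclease III fold and another human cardiomyopathy gene, had a log2 change of -0.07 with rivaroxaban and 0.02 with dabigatran, each against untreated. Mrpl58, a peptidyl-tRNA hydrolase built into the large subunit, had -0.15 and -0.13 in the same comparisons. Mrpl39 had 0.02 and -0.03. Mrps30 had 0.01 and 0.07. The 3 Mrps18 paralogs, whose proteins share ancestry but sit in different places, had log2 changes of -0.17 (Mrps18a, large subunit), -0.01 (Mrps18b, small subunit) and -0.10 (Mrps18c, the counterpart of the bacterial protein) with rivaroxaban. Mrps18a had the lowest level of all members without regard to length, 2.96 to 3.30 log2 CPM, and the largest SD within groups, 0.12. For most members the replicates were close: the median SD within groups was 0.05.

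Among the small-subunit proteins with a bacterial counterpart, 13 of 16 were below 0 with rivaroxaban against untreated, with a median log2 change of -0.08 and none called. Mrps15, which binds the small-subunit RNA, had the highest change of all members. Its log2 CPM was 6.22 and 6.26 with rivaroxaban, 6.37 and 6.20 with dabigatran and 6.18 in both untreated libraries. Both drug groups lay above the untreated one, by 0.06 and 0.11 on the log2 scale, and neither passed (limma adjusted p 0.664 and 0.496). Mrps2 stood at a change of 0.05 with rivaroxaban and 0.01 with dabigatran. Mrps24, at the mRNA entry, was at 6.46 and 6.43 log2 CPM with rivaroxaban, 6.62 and 6.56 with dabigatran and 6.50 and 6.40 in untreated hearts. The dabigatran libraries were the highest of the 6, with a change of 0.14 (limma adjusted p 0.310), while rivaroxaban gave -0.002.

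All 9 mitochondria-specific small-subunit proteins were below 0 with rivaroxaban against untreated, with a median log2 change of -0.14, and none passed the test. Mrps26 was at 5.39 and 5.34 log2 CPM with rivaroxaban, 5.59 and 5.43 with dabigatran and 5.75 and 5.57 in untreated hearts. The rivaroxaban libraries lay below the other 4 and the other groups overlapped, and the log2 change of -0.30 (SE 0.08) did not pass (limma adjusted p 0.0881). Mrps27, a pentatricopeptide repeat protein that binds RNA, was at 5.26 and 5.24 with rivaroxaban, 5.30 and 5.31 with dabigatran and 5.45 and 5.51 in untreated hearts. Both drug groups lay below the untreated one, by 0.23 with rivaroxaban (a log2 change of -0.23, limma adjusted p 0.0938) and by 0.18 with dabigatran (-0.18, adjusted p 0.222). Mrps23 had a log2 change of -0.17 with rivaroxaban and -0.04 with dabigatran. Mrps22, also a human cardiomyopathy gene, had -0.11 and 0.01. Mrps36, whose protein is not ribosomal, had -0.03 and -0.004, and a named pseudogene that could share its reads.

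**Figure D3:**
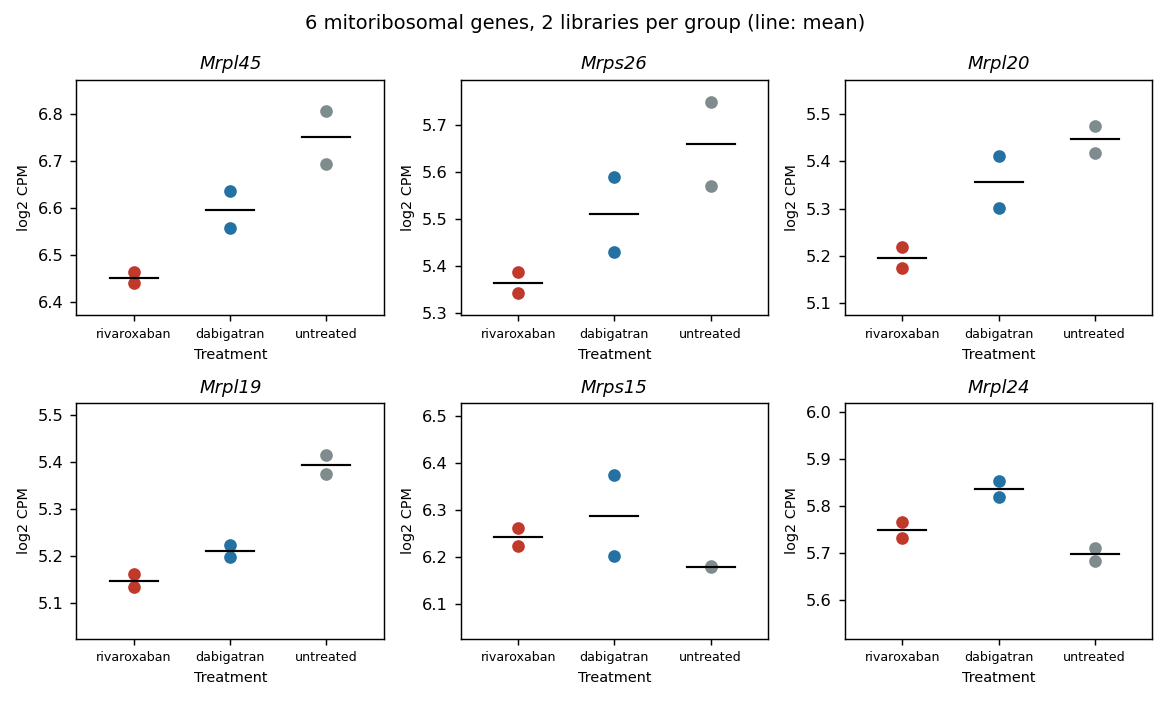
Log2 CPM of 6 members in each of the 2 libraries per group, with the group mean as a line; the panels have their own ranges. Mrpl45, Mrps26, Mrpl20 and Mrpl19 were lowest in the rivaroxaban libraries, and Mrps15 and Mrpl24 were lowest in the untreated libraries.

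With dabigatran the set as a whole stayed near the untreated level. No member passed the test, where the background was 244 of 12981 genes (1.88%; 1.38% higher and 0.501% lower), and the lowest limma adjusted p of a member was 0.204. At an unadjusted p below 0.05 there were 6 members (8.33%), 4 lower (6.19% of all genes) and 2 higher (8.47%), against 14.7% of all genes in either direction. Of the 72 genes, 41 (56.9%) were below 0 on the log2 scale, against 49.2% of all genes, with a median change of -0.013 and a range from -0.18 (Mrpl19) to 0.14 (Mrpl24). Both dabigatran libraries were below both untreated libraries in 14 members (19.4%; 20.8% of all genes) and above both in 8 (11.1%; 22.8% of all genes). The median depends on 1 library: it was -0.058 without dabigatran replicate 10 and 0.016 without dabigatran replicate 12. The 95% interval of the change spanned 0 in 66 members. The widest, that of Mrps18a, ran from -0.24 to 0.29, and the median interval reached 0.14 to either side. Rivaroxaban and dabigatran share the untreated libraries, so their changes against untreated are not independent.

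Set directly against dabigatran, and with the doses different, rivaroxaban libraries had lower levels of most members. The same rivaroxaban libraries serve in the comparison with untreated hearts, so these comparisons are not independent either. No member passed, where the background was 10 of 12981 genes (0.077%), and the lowest limma adjusted p of a member was 0.475, for Mrpl37. At an unadjusted p below 0.05 there were 11 members, all lower, where 8.43% of all genes passed, 4.41% lower and 4.02% higher. Of the 72 genes, 68 (94.4%) had a log2 difference below 0, against 49.6% of all genes, with a median of -0.086 and a range from -0.19 to 0.05. Both rivaroxaban libraries lay below both dabigatran libraries in 42 members (58.3%; 20.4% of all genes) and above both in 1 (1.39%; 19.3% of all genes), Mrps2. The 95% interval of the difference spanned 0 in 61 members and lay below 0 in 11. The median was -0.052 without dabigatran replicate 10 and -0.115 without dabigatran replicate 12.

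The lowest differences between the drugs were those of Mrps18a and Mrpl57, both -0.19, and Mrpl20 at -0.16. Mrpl57 encodes a mitochondria-specific large-subunit protein and was at 4.96 and 4.83 log2 CPM with rivaroxaban, 5.09 and 5.08 with dabigatran and 5.04 and 4.99 in untreated hearts. The rivaroxaban libraries were the lowest (limma adjusted p 0.508 against dabigatran). Mrpl37 was at 6.75 and 6.70 with rivaroxaban, 6.91 and 6.85 with dabigatran and 6.87 and 6.82 in untreated hearts. It stood at a difference of -0.15 between the drugs, and the dabigatran and untreated libraries overlapped. The highest differences were 0.05 for Mrpl39, 0.04 for Mrps2, 0.03 for Mrpl54 and 0.02 for Mrps11, none past the threshold. Both rivaroxaban libraries were below all 4 others in 33 members (45.8%; 10.4% of all genes) and above all 4 in none (9.54% of all genes). Both dabigatran libraries were above the other 4 in 7 members (9.72%; 7.42% of all genes) and below them in none (7.03%).

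**Figure D4:**
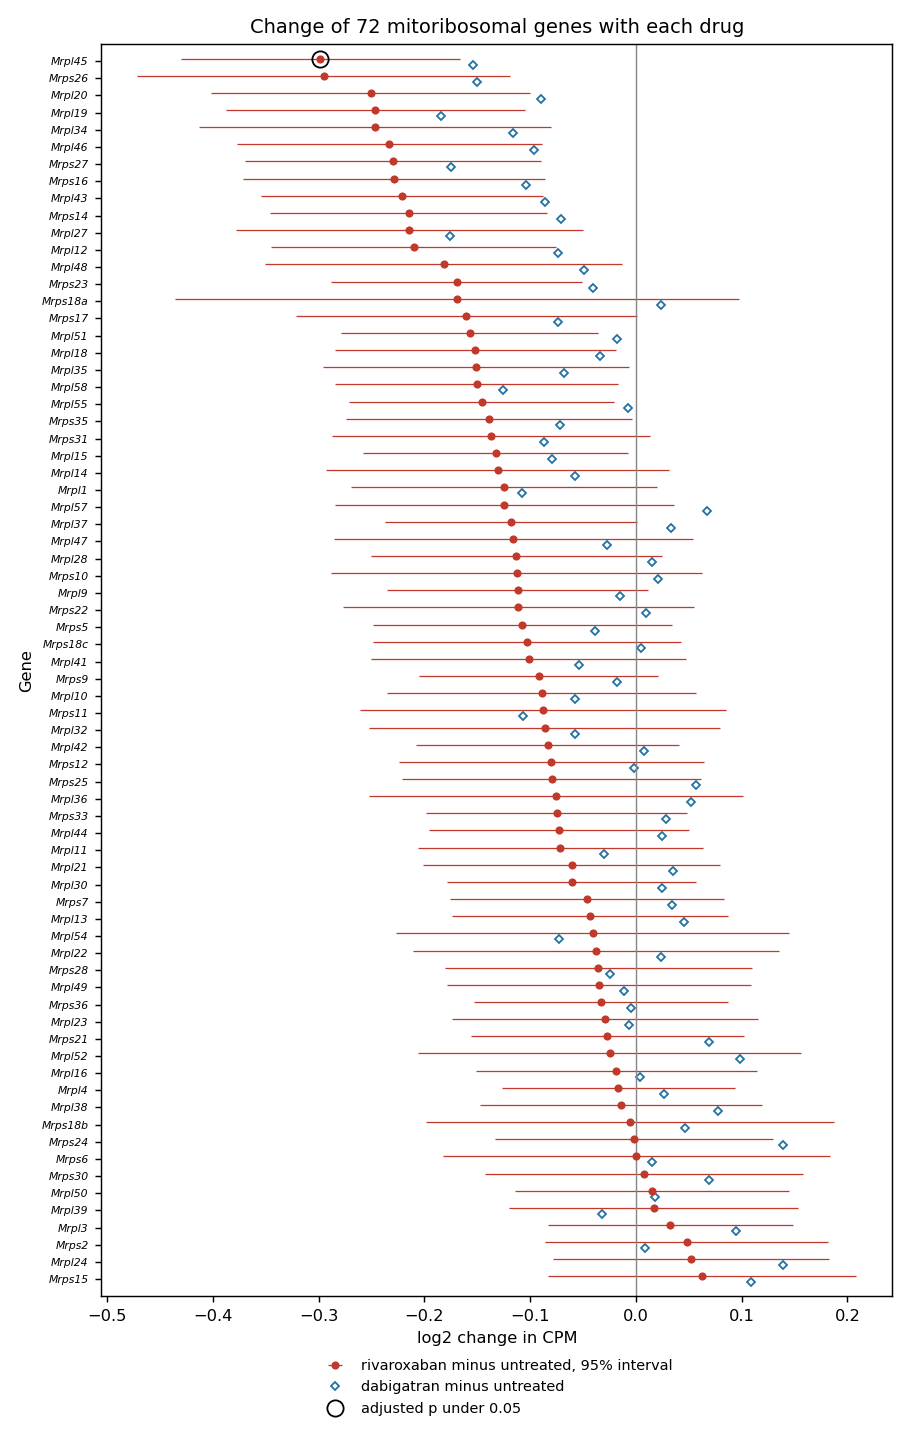
Log2 change of each of the 72 genes against untreated, ordered by the change with rivaroxaban; filled points and lines are rivaroxaban with its 95% interval and open diamonds dabigatran. Mrpl45, circled, is the 1 gene with an adjusted p below 0.05; 64 filled points lie below 0, and dabigatran points spread on both sides of 0.

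**Figure D5:**
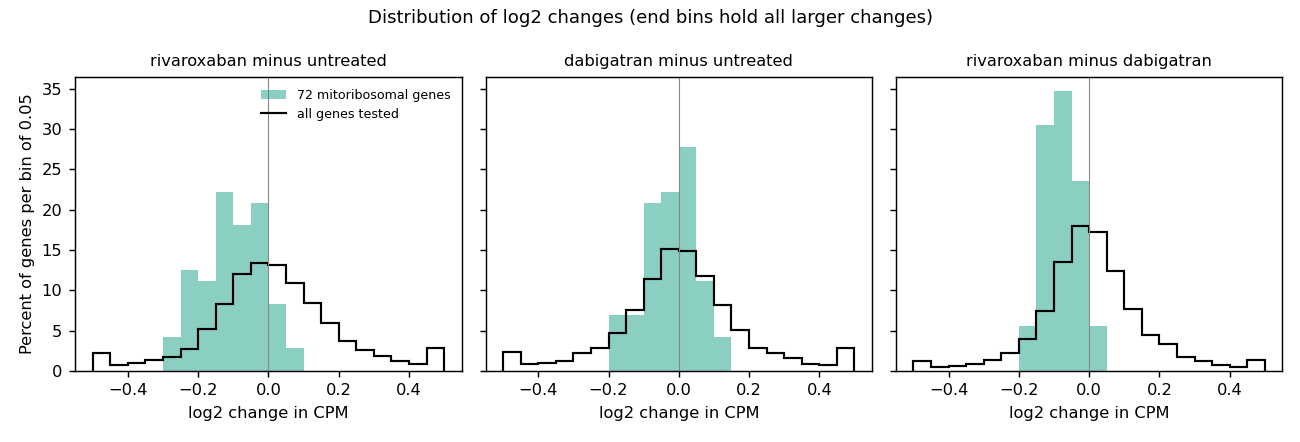
Share of the 72 genes (filled) and of all 12981 genes tested (line) per bin of log2 change in CPM, for rivaroxaban minus untreated, dabigatran minus untreated and rivaroxaban minus dabigatran. The members lie mostly left of 0 in the comparisons that hold rivaroxaban, with medians of -0.097 and -0.086, and near 0 for dabigatran minus untreated, at -0.013.

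Some of these genes lie close to other genes, and the shares over all genes were not computed. Of the 72, 23 start head to head with another protein-coding gene, with starts up to 1000 bases apart or overlapping by up to 500. In 27, bases of coding-transcript exons are shared with another gene. Among members named in the text these include Mrpl12, Mrpl24, Mrpl27, Mrpl19, Mrps25 (4590 bases with Nr2c2), Mrps11, Mrps27, Mrps30 and Mrps18b. The reads of such members may be split between overlapping genes. Without the 27, the median log2 change of the other 45 was -0.09 with rivaroxaban against untreated, -0.01 with dabigatran against untreated and -0.08 between rivaroxaban and dabigatran. Mrps18b starts 45 bases from Ppp1r10 in GENCODE M21 (756 bases by the RefSeq starts), which encodes a nuclear regulatory subunit of protein phosphatase 1. Ppp1r10 had a log2 CPM of 5.64 and 5.71 with rivaroxaban, 5.78 and 5.97 with dabigatran and 4.80 and 4.92 in untreated hearts. Both drug groups lay well above the untreated one, 1.75-fold with rivaroxaban (log2 change 0.81, SE 0.08, limma adjusted p 6.34e-04) and 2.01-fold with dabigatran (1.01, adjusted p 1.25e-04); without limma's trend neither passed (0.0682 and 0.113). Mrps18b itself was at 4.45 and 4.65 with rivaroxaban, 4.55 and 4.65 with dabigatran and 4.55 and 4.56 in untreated hearts, with the groups overlapping; 638 bases of its exons are shared with an antisense gene. Ppp1r10 was singled out after its values were seen, and no other head-to-head partner tested passed in any comparison. Mrpl46 and Mrps11 form such a pair within the set, and their log2 changes with rivaroxaban against untreated were -0.23 and -0.09. Mrps27 and Ptcd2, a gene for another mitochondrial pentatricopeptide repeat protein, start 81 bases apart, with -0.23 and -0.19 for rivaroxaban and -0.18 and -0.18 for dabigatran.

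The other genes of mitochondrial translation were read from lists of gene products that act beside these proteins. The 5 ribosomal proteins with other symbols (Dap3, Ptcd3, Chchd1, Aurkaip1 and Gadd45gip1) had median log2 changes of -0.08 with rivaroxaban against untreated, -0.02 with dabigatran against untreated and -0.07 between the drugs. All 5 were below 0 with rivaroxaban and none passed, with Chchd1 the lowest at -0.19 (limma adjusted p 0.214). The list of 13 translation factors and helpers, which also holds the insertase Oxa1l, the formyltransferase Mtfmt and the activator Taco1, had medians of -0.09, -0.01 and -0.07 in the same order, and none passed. Tsfm, the elongation factor that recharges Tufm, was at a log2 change of -0.29 with rivaroxaban (limma adjusted p 0.0753). The 25 genes of ribosome assembly and ribosomal RNA modification had medians of -0.06, 0.02 and -0.07, none called, with Mettl17 the lowest at -0.24 with rivaroxaban (adjusted p 0.203). The 12 genes of mitochondrial DNA replication (Polg, Polg2 and Twnk), transcription and RNA stability had -0.09, 0.01 and -0.05, none called, with Slirp at -0.21 with rivaroxaban (adjusted p 0.248).

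In a list of 19 genes that charge mitochondrial tRNAs with amino acids, the synthetases together with Qrsl1 and Gatc of the glutamyl-tRNA amidotransferase, 1 gene passed the test in 1 comparison. Lars2, for the leucine enzyme, was at 7.25 and 7.47 log2 CPM with rivaroxaban, 8.09 and 7.60 with dabigatran and 6.90 and 7.29 in untreated hearts. It rose with dabigatran by 0.75 against untreated (SE 0.15, limma adjusted p 0.0363). The dabigatran libraries were the highest and differed from each other more than the rivaroxaban pair did. The call was lost without dabigatran replicate 10 (0.51, adjusted p 0.156), without untreated replicate 8 (0.56, 0.202) and without limma's trend (0.252), and without dabigatran replicate 12 the change was 0.996. The medians of this list were -0.06 with rivaroxaban and 0.00 with dabigatran against untreated and -0.06 between the drugs.

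The 9 regulators of mitochondrial biogenesis had median log2 changes of 0.07 with rivaroxaban and 0.12 with dabigatran against untreated, with 3 of 9 below 0 in each, and -0.05 between the drugs, with 6 below 0; none passed. Ppargc1a, a co-activator of nuclear genes for mitochondria, had a log2 change of 0.38 with dabigatran (limma adjusted p 0.247). Without dabigatran replicate 12 it was 0.69, past the threshold (adjusted p 7.69e-04), and without dabigatran replicate 10 it was 0.07 (adjusted p 0.754), so the value rests on which dabigatran library is used. Pprc1, a related co-activator, had 0.23 with rivaroxaban and 0.24 with dabigatran (adjusted p 0.182 and 0.192). The products of mitochondrial DNA itself, which the ribosome translates, are not analysed here.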

How the data were processed

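Poly-A RNA was purified and sequenced from directional libraries, per the labels' protocols. STAR, edgeR, Trim Galore, FastQC, bcl2fastq and mm10 are named, without versions, in the submitters' processing notes; which counter and strand setting were used is not given in the sources. As log2 values, per the file headers, the authors deposited log2 CPM scaled by TMM for 16229 genes; every library shares the lowest value of -4.04, so a small count was added and changes of low genes are understated. Reads per library were recovered from the low values, of which 100% were whole within 0.02 reads. No molecular identifiers are named, so reads need not be independent molecules.

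The test covered genes whose mean log2 CPM was 0 or more. Group means over all 6 libraries were fitted with limma 3.58.1 (R 4.3.3) with a mean-variance trend, which gave 3 residual and 7.75 prior degrees of freedom, and p-values were adjusted over all genes tested by Benjamini-Hochberg at 0.05. The fit was tried on simulated data with known changes and independent noise for each gene. That trial cannot cover shifts that many genes of a library share. All 72 members matched GENCODE M21, from which lengths and neighbours were taken; promoters came from RefSeq (GRCm38.p6). The members, lists and motif letters were chosen with earlier results of these data known. The named genes are members called, the extremes of change, level and spread, members with special roles and, of each list, genes called or those with the lowest p; others are said in the text to be chosen after their values were seen, as were Mrpl46 and Ptcd2.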

Additional observations from a re-analysis of the deposited data

How the results depend on the processing

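Of 3567 alternative values for 255 gene comparisons (every member and the other genes named with a test) under 14 other settings, 3353 kept their direction and side of the threshold or moved by less than the spread between replicates, 171 moved more, 39 lost the call, 4 gained one (Ppargc1a, Krt19 and Slc4a1, without 1 library) and 0 called values reversed; 135 values that passed no test changed sign, in 77 of the gene comparisons. Slc4a1 gave no value under the stricter filter on low values. Log2 changes do not move with the filter, the trend, a fit of only the groups compared or a library left out of the third group. Under those settings a value that passed no test could differ only by gaining a call. The count of 3353 thus holds many values fixed in advance and is no measure of stability. Without limma's trend, 0 genes were called in all 3 comparisons (1938 genes at an unadjusted p below 0.05 for rivaroxaban against untreated, 1728 for dabigatran against untreated and 984 for rivaroxaban against dabigatran), and so 0 members. With only the groups compared in the fit, 6 genes were called between rivaroxaban and dabigatran. Leaving out 1 library at a time, genes called ranged from 61 to 410 for rivaroxaban against untreated, from 73 to 270 for dabigatran against untreated and from 0 to 20 for rivaroxaban against dabigatran, and members called from 0 to 1 for rivaroxaban. Each library left out moved at least 1 of these counts by over 1.5 times: 173 were called for rivaroxaban without rivaroxaban replicate 14, 61 without rivaroxaban replicate 15 and 212 without untreated replicate 9, 73 for dabigatran without untreated replicate 8 and 98 without dabigatran replicate 10, and 20 between the drugs without dabigatran replicate 12. The members' median log2 change ranged from -0.129 to -0.077 for rivaroxaban and from -0.115 to -0.052 between the drugs, below 0 in every case, and from -0.058 to 0.016 for dabigatran; members below 0 numbered 56 to 65 for rivaroxaban and 27 to 53 for dabigatran. The causes were not tested. Where an arm kept 1 library, it was assumed to vary like the others. Median centring and upper-quartile scaling gave -0.114 and -0.116 for rivaroxaban against untreated. Upper-quartile scaling and voom weights on recovered reads were chosen after seeing the data. Count models planned for the recovered reads were not run, since the deposited unit is log2. No paired analysis was possible because the groups share no replicate number. With 2 libraries per group, the median 95% interval reached 0.14 on the log2 scale to either side of a member's change. These intervals are not adjusted over all genes, so 0.14 is not the limit of detection. Mrps26, at -0.30 with rivaroxaban against untreated, did not pass (limma adjusted p 0.0881).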
